A study of Mus musculus with 9 samples.

Results

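The genes described here are 9 that encode the ligands of transforming growth factor beta (TGF-beta) and a set of secreted matrix proteins and crosslinking enzymes linked to fibrosis, in glomeruli of diabetic mice. They are the ligand genes Tgfb1, Tgfb2 and Tgfb3, the ligand activator Thbs1, the matrix proteins Fn1, Spon2 and Postn, and the lysyl oxidases Lox and Loxl2. They were chosen by name: of 56605 probes on the array, 20 carry 1 of these gene names, and 17 of the 20 passed the filter on dim probes. All 9 genes had at least 1 probe that passed, among 24150 features tested.

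TGF-beta is secreted in a latent form, bound to its own propeptide, and has to be released before it can bind its receptors. Thrombospondin 1 and several integrins can release it. The receptors then phosphorylate SMAD proteins, which enter the nucleus and switch on genes for fibronectin, collagens and matrix crosslinkers. In the glomerulus, the filtering unit of the kidney, this pathway is known for its part in the expansion of the mesangial matrix in diabetic kidney disease.

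All mice were male, on the BTBR background and 22 weeks old, and 3 groups of them gave 3 samples each. The first group were ob/ob mice given enarodustat in their food for 18 weeks, the second ob/ob mice on vehicle food and the third wild-type mice on vehicle food. The ob/ob genotype removes functional leptin from the whole body, and on the BTBR background such mice become obese and diabetic. Enarodustat inhibits the prolyl hydroxylases that target hypoxia-inducible factors for degradation. The labels do not say whether a sample is 1 mouse or a pool, so p-values measure the spread between these samples, which may be partly technical. The ob allele is a point mutation, so the array offers no check of the genotype.

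Total RNA of glomeruli, collected with magnetic beads, was hybridised to 1-colour arrays. Levels are on the log2 scale with the 75th percentile of the same array subtracted, so a level of 0 lies at that percentile. They are comparable between arrays for 1 probe and not between probes. The 75th percentile was 210.4 to 325.3 intensity units, 62.3% to 68.3% of probes were well above background, and no spot was saturated. Correlations over the probes that passed the filter were 0.972 to 0.990 within groups and 0.951 to 0.986 between groups. Glomerular markers were high on every array, and proximal tubule markers varied: their summed level, as a multiple of the 75th percentile, was 19.2, 174 and 19.9 in ob/ob enarodustat replicates 1 to 3, 17.9, 36.1 and 3.17 in ob/ob vehicle and 48.3, 41.0 and 546 in wild-type vehicle. Enarodustat replicate 3 was on a slide of its own and the other 8 arrays shared another. With 3 arrays a group, precision is limited by that number. In RNA from whole glomeruli, fewer cells of a type and less RNA per cell cannot be told apart.

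The array reads each transcript through probes of 60 bases. The first pair below shows how far the probes of 2 related ligand genes, Tgfb1 and Tgfb2, differ. Capitals mark bases that are identical in the ungapped alignment of the pair, 28 of 41 aligned bases, with no identical run longer than 7. The other probes are of Fn1 and Loxl2, printed as examples of genes called in both comparisons with wild type. Tgfb3 and Spon2 were also called in both. The sequences are those of the deposited scanner files, with mm9 coordinates.
Tgfb1, chr7:26489877-26489936, plus strand: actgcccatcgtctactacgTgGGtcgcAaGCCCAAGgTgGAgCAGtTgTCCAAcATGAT
Tgfb2, chr1:188449333-188449392, minus strand: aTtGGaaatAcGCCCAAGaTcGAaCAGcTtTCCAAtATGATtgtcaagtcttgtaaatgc
Fn1, chr1:71637422-71639659, minus strand: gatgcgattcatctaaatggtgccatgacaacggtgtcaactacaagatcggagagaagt
Fn1, chr1:71694694-71695800, minus strand: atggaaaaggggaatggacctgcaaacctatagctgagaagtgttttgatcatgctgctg
Loxl2, chr14:70090017-70090076, plus strand: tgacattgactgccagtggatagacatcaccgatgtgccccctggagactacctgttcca
The 60 bases of the Fn1 probes are spread over 2238 and 1107 bases of the genome. Each gene is represented below by its brightest probe, and further probes are given beside it.

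The ob/ob vehicle glomeruli had higher levels of 5 of the 9 genes than wild-type vehicle glomeruli, namely Tgfb3, Thbs1, Fn1, Spon2 and Loxl2, at a limma adjusted p under 0.05, and none was called lower. Over all features 7.55% were called, 4.89% higher and 2.66% lower. The ob/ob enarodustat glomeruli had higher levels of 4 of the 9 than wild-type vehicle glomeruli, namely Tgfb3, Fn1, Spon2 and Loxl2, where 10.2% of all features were called, 6.1% higher and 4.09% lower. Between ob/ob enarodustat and ob/ob vehicle, limma called 0 of the 9 and 0% of all features. At an unadjusted p under 0.05 that comparison held 1 of the 9, Thbs1, against 7.01% of all features. The median log2 change of the 9 genes was -0.30 for ob/ob enarodustat over ob/ob vehicle, against -0.03 over all features. It was 1.16 for ob/ob vehicle over wild-type vehicle, against 0.02, and 0.81 for ob/ob enarodustat over wild-type vehicle, against -0.01. The 3 comparisons share samples in pairs, so their values are set side by side here and not compared as independent results.

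**Figure D1:**
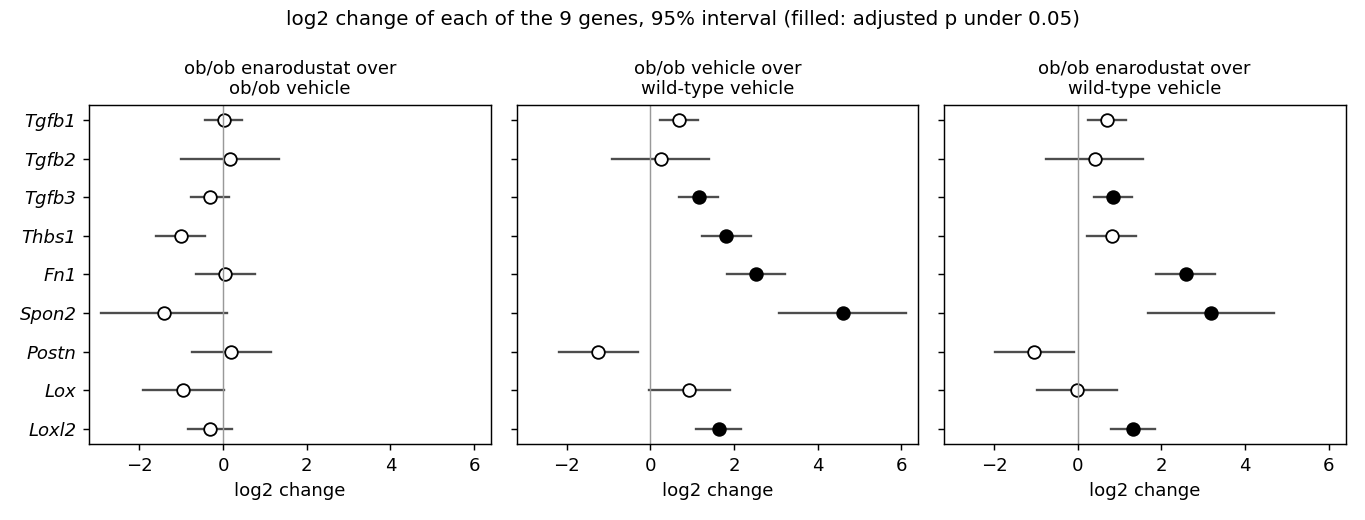
Log2 change of each of the 9 genes in the 3 comparisons, with 95% intervals, and filled points where the limma adjusted p is under 0.05. Filled points are 5 for ob/ob vehicle over wild-type vehicle, 4 for ob/ob enarodustat over wild-type vehicle and 0 for ob/ob enarodustat over ob/ob vehicle.

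Tgfb3 was the 1 of the 3 ligand genes that was called, and it has 1 probe, so no second probe checks its values. Tgfb3, a ligand expressed in many mesenchymal cells, had log2 levels of 1.83, 1.58 and 2.07 in ob/ob enarodustat glomeruli, 2.26, 2.23 and 1.92 in ob/ob vehicle and 1.38, 0.82 and 0.75 in wild-type vehicle. Both ob/ob groups lay wholly above wild type, and they overlapped each other. The log2 change was 1.16 ± 0.20 for ob/ob vehicle over wild-type vehicle (SE, limma adjusted p = 0.0123) and 0.85 ± 0.20 for ob/ob enarodustat over wild-type vehicle (limma adjusted p = 0.0347). The log2 change of ob/ob enarodustat over ob/ob vehicle was -0.31 ± 0.20, with a 95% interval from -0.77 to 0.15 and a limma adjusted p of 0.771. The ob/ob vehicle call was lost without wild-type replicate 2 (log2 change 1.08, limma adjusted p = 0.0501) and without ob/ob vehicle replicate 1 (1.09, limma adjusted p = 0.0507), and with proximal tubule markers as a covariate (1.06, limma adjusted p = 0.0727).

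The enarodustat call for Tgfb3 was lost in 6 of the 9 fits that left out 1 array. With wild-type replicate 2 left out the limma adjusted p of Tgfb3 was 0.110, and with wild-type replicate 3 left out it was 0.0867. It was 0.0514 when ob/ob vehicle replicate 1 was left out and 0.0537 for replicate 2. It was 0.0860 without enarodustat replicate 1 and 0.110 without enarodustat replicate 3, the array on its own slide. The log2 change of Tgfb3 stayed between 0.72 and 0.85 in these 6 fits. The call was also lost in 6 of the other 11 alternatives. Its limma adjusted p was 0.0565 with the array median, 0.0822 with no filter on dim probes, 0.0700 with only the groups compared in the fit and 0.0511 with a replicate block. It was 0.0560 with proximal tubule markers as a covariate. With slide as a block it was again 0.110, because that fit also leaves out enarodustat replicate 3, so it is not a separate loss.

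Tgfb1, the ligand isoform most studied in diabetic kidney disease, was not called in any comparison. Its log2 levels were 1.43, 1.25 and 1.86 in ob/ob enarodustat glomeruli, 1.61, 1.54 and 1.34 in ob/ob vehicle and 1.02, 0.93 and 0.49 in wild-type vehicle. All 6 ob/ob arrays lay above all 3 wild-type arrays. The log2 change was 0.68 ± 0.20 for ob/ob vehicle over wild-type vehicle (limma adjusted p = 0.0749) and 0.70 ± 0.20 for ob/ob enarodustat over wild-type vehicle (limma adjusted p = 0.0602). For ob/ob enarodustat over ob/ob vehicle it was 0.02 ± 0.20, with a 95% interval from -0.43 to 0.46. The further Tgfb1 probe gave 0.48 and 0.50 over wild type and 0.02 between the ob/ob groups, also uncalled. Of 20 alternative settings, none called Tgfb1 in either comparison with wild type. The lowest limma adjusted p of Tgfb1 among them was 0.0575 for ob/ob vehicle and 0.0501 for ob/ob enarodustat.

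Tgfb2, the third ligand, varied more within groups than between them. Its log2 levels were 0.95, 1.64 and 1.51 in ob/ob enarodustat glomeruli, 1.48, 1.90 and 0.23 in ob/ob vehicle and 1.63, 1.26 and -0.00 in wild-type vehicle. All groups overlapped, and the low arrays were replicate 3 of both vehicle groups. Those 2 arrays hold the lowest and the highest summed level of proximal tubule markers of all 9, 3.17 and 546. The log2 changes were 0.16 ± 0.51 for ob/ob enarodustat over ob/ob vehicle, 0.24 ± 0.51 for ob/ob vehicle over wild-type vehicle and 0.41 ± 0.51 for ob/ob enarodustat over wild-type vehicle. Their limma adjusted p values were 0.956, 0.821 and 0.663. The 95% interval for ob/ob vehicle over wild-type vehicle ran from -0.92 to 1.41, which leaves room for a change of either sign of up to about that size. The further Tgfb2 probe was lowest on the same 2 arrays, at -1.08 in ob/ob vehicle and -0.93 in wild-type vehicle.

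Thbs1 was the 1 gene of the 9 for which the ob/ob enarodustat and ob/ob vehicle groups did not overlap, being lower with enarodustat. Of all features 16% did not overlap in either direction and 9.49% were lower in this way. Thbs1 encodes thrombospondin 1, a matricellular protein that can release latent TGF-beta. Its log2 levels were 2.92, 2.55 and 2.65 in ob/ob enarodustat glomeruli, 3.93, 3.89 and 3.31 in ob/ob vehicle and 2.36, 1.43 and 1.90 in wild-type vehicle. The ob/ob enarodustat values lay wholly below those of ob/ob vehicle and wholly above those of wild-type vehicle. The log2 change of Thbs1 was -1.01 ± 0.26 for ob/ob enarodustat over ob/ob vehicle, with a 95% interval from -1.59 to -0.42, and did not pass after adjustment (limma adjusted p = 0.681). It ranked 134 by p among the 24150 features of that comparison. The range of its log2 change over 20 alternatives was -1.21 to -0.89, and none of them called it.

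Thbs1 rose by 1.82 ± 0.26 for ob/ob vehicle over wild-type vehicle, 3.52-fold (95% interval 2.34 to 5.28, limma adjusted p = 0.00576), and the call held in all 20 alternatives. For ob/ob enarodustat over wild-type vehicle the log2 change was 0.81 ± 0.26 (limma adjusted p = 0.0850). That change was called in the fit without wild-type replicate 1, at 1.04 (limma adjusted p = 0.0442), and in no other alternative. The further Thbs1 probe gave -0.77 for ob/ob enarodustat over ob/ob vehicle and 1.52 and 0.75 for the ob/ob vehicle and ob/ob enarodustat groups over wild type. Platelets carry thrombospondin 1 and TGF-beta 1. The summed level of 6 platelet markers was 1.21 to 1.99 in ob/ob enarodustat, 1.28 to 4.97 in ob/ob vehicle and 0.691 to 0.880 in wild-type vehicle, as multiples of the 75th percentile. In both comparisons with wild type, 1 of the 6 was called higher, and none was called between the ob/ob groups. Of all features, 4.89% were called higher in ob/ob vehicle and 6.1% in ob/ob enarodustat, over wild type. Of the 6 platelet markers, 5 had positive log2 changes in each comparison with wild type. The medians were 1.43 for ob/ob vehicle and 0.56 for ob/ob enarodustat. For ob/ob enarodustat over ob/ob vehicle 1 of the 6 was positive, and the median was -0.83. One of the markers, Itga2b, was not well above background on every array. The part of platelets in the Thbs1 values was not tested.

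**Figure D2:**
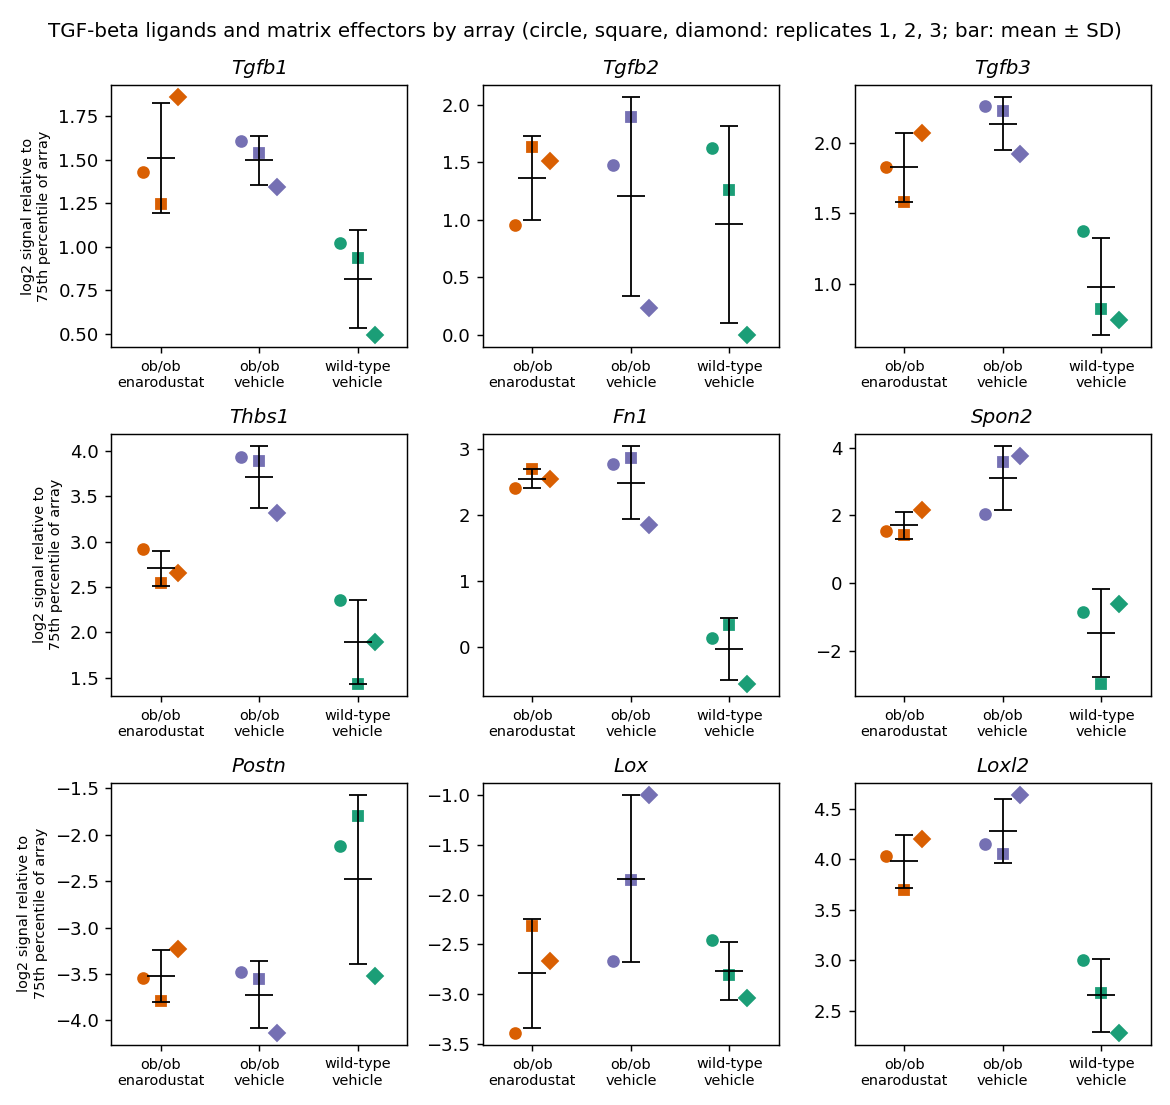
Log2 level of the brightest probe of each gene on each of the 9 arrays, relative to the 75th percentile of the array, with bars for mean ± SD (n = 3). Fn1, Spon2, Loxl2, Thbs1, Tgfb1 and Tgfb3 have all ob/ob arrays above all wild-type arrays. Among the 9 genes, Thbs1 alone separates the 2 ob/ob groups, with no call between them (limma adjusted p = 0.681). These groups are separated by 16% of all features in either direction, and by 9.49% being lower with enarodustat.

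Fn1 had the smallest p of the 9 genes in both comparisons with wild type. It encodes fibronectin, a glycoprotein that scaffolds collagen and latent TGF-beta in the matrix. Its log2 levels were 2.40, 2.69 and 2.54 in ob/ob enarodustat glomeruli, 2.76, 2.85 and 1.84 in ob/ob vehicle and 0.14, 0.33 and -0.57 in wild-type vehicle. Every ob/ob array lay above every wild-type array by more than the range of either group, and the ob/ob groups overlapped. The log2 change was 2.52 ± 0.31 for ob/ob vehicle over wild-type vehicle (limma adjusted p = 0.00370) and 2.58 ± 0.31 for ob/ob enarodustat over wild-type vehicle (limma adjusted p = 0.00331), a 5.97-fold difference. For ob/ob enarodustat over ob/ob vehicle it was 0.06 ± 0.31, with a 95% interval from -0.64 to 0.76. That interval leaves room for a change of either sign of up to about that size.

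The Fn1 change was also seen by a second probe. The brightest probe lies at chr1:71632116-71632175 in mm9, and the 2 Fn1 probes whose sequences are printed above are its further probes. The one at chr1:71637422-71639659 was well above background on all 9 arrays, with log2 changes of 1.92 for ob/ob vehicle over wild-type vehicle and 2.04 for ob/ob enarodustat over wild-type vehicle, and was called in both. The probe at chr1:71694694-71695800 was well above background on no wild-type array and passed the filter through the ob/ob groups alone, so it is not counted as a check of the change. A probe at chr1:71650690-71650749 did not pass the filter, being well above background on 2 arrays of each ob/ob group and on 0 of wild type. Both Fn1 calls held in all 20 alternatives.

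Spon2 had the widest spread and the largest changes of the 9 genes. It encodes spondin 2, a secreted matrix protein also known as a ligand for integrins on immune cells. Its log2 levels, at chr5:33556617-33556676 in mm9, were 1.53, 1.42 and 2.15 in ob/ob enarodustat glomeruli, 2.03, 3.56 and 3.75 in ob/ob vehicle and -0.85, -2.99 and -0.61 in wild-type vehicle. The ob/ob groups lay wholly above wild type and overlapped each other, because ob/ob vehicle replicate 1 fell below enarodustat replicate 3. The log2 change was 4.59 ± 0.66 for ob/ob vehicle over wild-type vehicle (limma adjusted p = 0.00603), the 8th highest of 24150 features. It was 3.18 ± 0.66 for ob/ob enarodustat over wild-type vehicle (limma adjusted p = 0.0212).

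Between the ob/ob groups the log2 change of Spon2 was -1.41 ± 0.66, with a 95% interval from -2.92 to 0.10 (limma adjusted p = 0.714). The ob/ob vehicle call of Spon2 held in all 20 alternatives, with log2 changes between 3.84 and 5.14. The enarodustat call was lost without enarodustat replicate 1 (3.26, limma adjusted p = 0.0555) and without enarodustat replicate 3 (2.96, limma adjusted p = 0.0726). It was also lost with no filter on dim probes (limma adjusted p = 0.0504). Spon2 has 1 probe, so no second probe checks these values.

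Monocyte and macrophage markers rose in the same comparisons as Fn1 and Spon2. Of 10 such markers, 8 rose in ob/ob vehicle over wild-type vehicle and 6 in ob/ob enarodustat over wild-type vehicle. Over all features, 4.89% were called higher and 2.66% lower in the first comparison, and 6.1% and 4.09% in the second. Their summed level was 84.3 to 104 in ob/ob enarodustat, 107 to 112 in ob/ob vehicle and 66.9 to 76.5 in wild-type vehicle, as multiples of the 75th percentile. Of 7 mesangial markers 1 was called, and higher, in both comparisons with wild type. Their summed level was 452 to 529 in ob/ob enarodustat, 535 to 566 in ob/ob vehicle and 227 to 370 in wild-type vehicle. That sum is weighted to the brightest markers, and the median log2 change of the 7 was small. It was 0.09 for ob/ob vehicle and 0.16 for ob/ob enarodustat, over wild type. Of 8 podocyte markers, 6 fell in ob/ob enarodustat and 4 in ob/ob vehicle, relative to wild type. No endothelial marker (of 8) and no proximal tubule marker (of 12) was called in any comparison. All 12 proximal tubule markers nonetheless had positive log2 changes for ob/ob enarodustat over ob/ob vehicle, with a median of 1.56. All 12 had negative ones over wild type, with medians of -2.34 for ob/ob vehicle and -0.86 for ob/ob enarodustat. Of 8 fibroblast markers, Lum, Dpt and Mfap5 did not pass the filter and 2 of the other 5, Dcn and Col3a1, rose in both comparisons with wild type. Of the 5, 4 had positive log2 changes in each of these comparisons. Their summed level overlapped between groups, at 70.1 to 78.0 in ob/ob enarodustat, 73.9 to 87.3 in ob/ob vehicle and 69.7 to 87.8 in wild-type vehicle. The part of these cell types in the values of the 9 genes was not tested.

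Postn was the 1 gene of the 9 with lower means in both ob/ob groups than in wild type by more than 1 log2 unit, and it was not called. It encodes periostin, a matricellular protein that binds fibronectin and collagen. Its log2 levels were -3.54, -3.80 and -3.23 in ob/ob enarodustat glomeruli, -3.48, -3.55 and -4.14 in ob/ob vehicle and -2.12, -1.80 and -3.52 in wild-type vehicle. Wild-type replicate 3 lay among the ob/ob arrays, and the other 2 wild-type arrays lay above all of them. The log2 change was -1.24 ± 0.41 for ob/ob vehicle over wild-type vehicle (limma adjusted p = 0.112) and -1.04 ± 0.41 for ob/ob enarodustat over wild-type vehicle (limma adjusted p = 0.149). For ob/ob enarodustat over ob/ob vehicle it was 0.20 ± 0.41. Without wild-type replicate 3, the array with the most proximal tubule signal, Postn was called lower in both ob/ob vehicle (-1.76, limma adjusted p = 0.0131) and ob/ob enarodustat (-1.56, limma adjusted p = 0.0161). A second Postn probe gave -1.62 for ob/ob vehicle over wild-type vehicle and -1.32 for ob/ob enarodustat over wild-type vehicle, also uncalled. Another was well above background on 1 ob/ob enarodustat, 2 ob/ob vehicle and 3 wild-type arrays and passed the filter through wild type alone, so its changes are not given. The remaining Postn probe was well above background on no array.

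**Figure D3:**
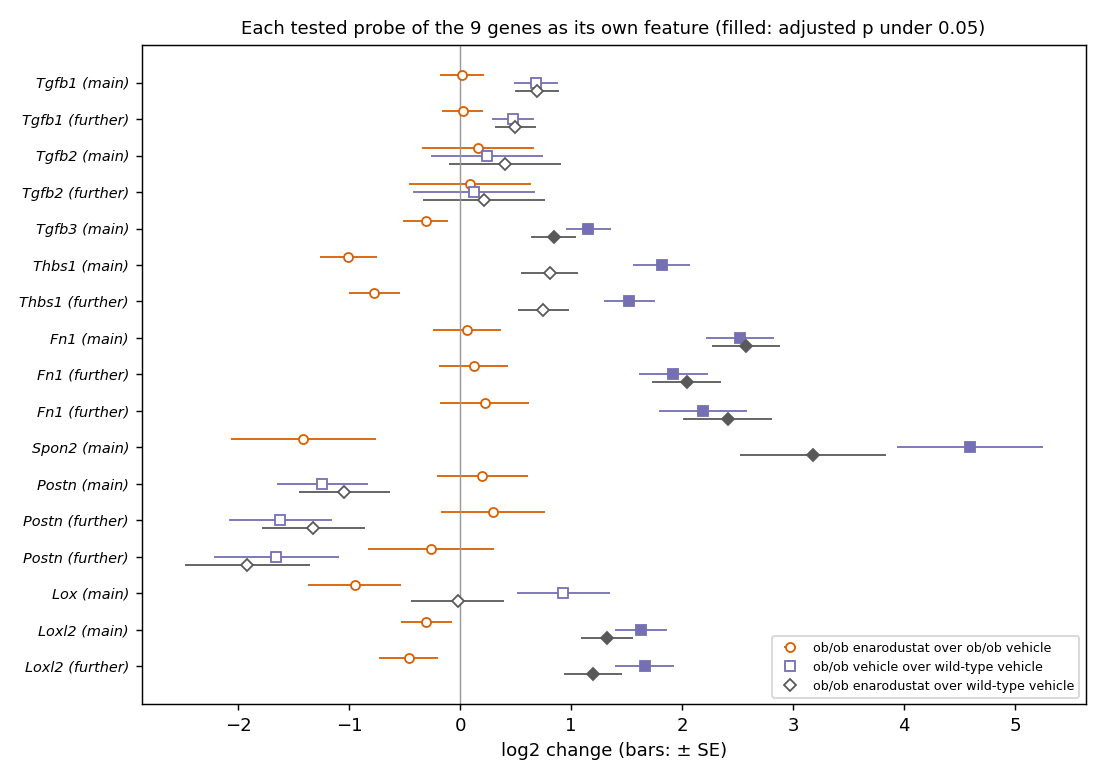
Log2 change ± SE of each of the 17 tested probes of the 9 genes, fitted as features of their own, in the 3 comparisons, with filled marks where the limma adjusted p is under 0.05. The Fn1 and Loxl2 probes are filled in both comparisons with wild type, though 1 of the 3 Fn1 probes was well above background on no wild-type array, both Thbs1 probes for ob/ob vehicle over wild-type vehicle, and no mark is filled between the ob/ob groups.

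Loxl2 rose in both ob/ob groups and Lox passed in none. Both encode amine oxidases that start the crosslinking of collagen and elastin. Loxl2 log2 levels were 4.03, 3.69 and 4.20 in ob/ob enarodustat glomeruli, 4.15, 4.05 and 4.64 in ob/ob vehicle and 3.00, 2.68 and 2.28 in wild-type vehicle. All ob/ob arrays lay above all wild-type arrays, and the ob/ob groups overlapped. The log2 change was 1.63 ± 0.23 for ob/ob vehicle over wild-type vehicle (limma adjusted p = 0.00595) and 1.32 ± 0.23 for ob/ob enarodustat over wild-type vehicle (limma adjusted p = 0.0113). Both calls held in all 20 alternatives and at both probes. Between the ob/ob groups the log2 change was -0.30 ± 0.23, with a 95% interval from -0.83 to 0.22 (limma adjusted p = 0.795).

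Lox log2 levels were -3.39, -2.31 and -2.67 in ob/ob enarodustat glomeruli, -2.67, -1.85 and -0.99 in ob/ob vehicle and -2.46, -2.80 and -3.04 in wild-type vehicle. The groups overlapped in every comparison, and ob/ob vehicle replicates 2 and 3 were the highest arrays. The log2 change of Lox was -0.95 ± 0.42 for ob/ob enarodustat over ob/ob vehicle (limma adjusted p = 0.708) and 0.93 ± 0.42 for ob/ob vehicle over wild-type vehicle (limma adjusted p = 0.229). It was -0.02 ± 0.42 for ob/ob enarodustat over wild-type vehicle (limma adjusted p = 0.979), with a 95% interval from -0.99 to 0.94. A second Lox probe did not pass the filter.

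Counted over the 9 genes, 6 had ob/ob vehicle arrays wholly above the wild-type arrays, where 17.8% of all features did, and none lay wholly below, where 12.9% did. The same count was 6 for ob/ob enarodustat over wild-type vehicle, where 16.8% of all features did, and again none lay wholly below, where 14% did. Those 6 were Tgfb1, Tgfb3, Thbs1, Fn1, Spon2 and Loxl2 in both. The wild-type arrays are shared by the 2 comparisons.

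Within each group, certain arrays were low or high for many of the 9 genes. In ob/ob enarodustat, replicate 2 was the lowest of its group for 6 genes and replicate 3 the highest for 5. In ob/ob vehicle, replicate 3 was the lowest for 6, namely Tgfb1, Tgfb2, Tgfb3, Thbs1, Fn1 and Postn, and the highest for Spon2, Lox and Loxl2. In wild-type vehicle, replicate 3 was the lowest for 7 genes, all but Thbs1 and Spon2. Those 3 low arrays had proximal tubule sums of 174, 3.17 and 546, which are the highest, the lowest and the highest of their groups. The part of tubule RNA in this order was not tested beyond the covariate fit, in which 4 of the 5 calls of ob/ob vehicle over wild-type vehicle were made and that of Tgfb3 was not. Of the 4 calls of ob/ob enarodustat over wild-type vehicle, 3 were made in it and that of Tgfb3 was not.

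**Figure D4:**
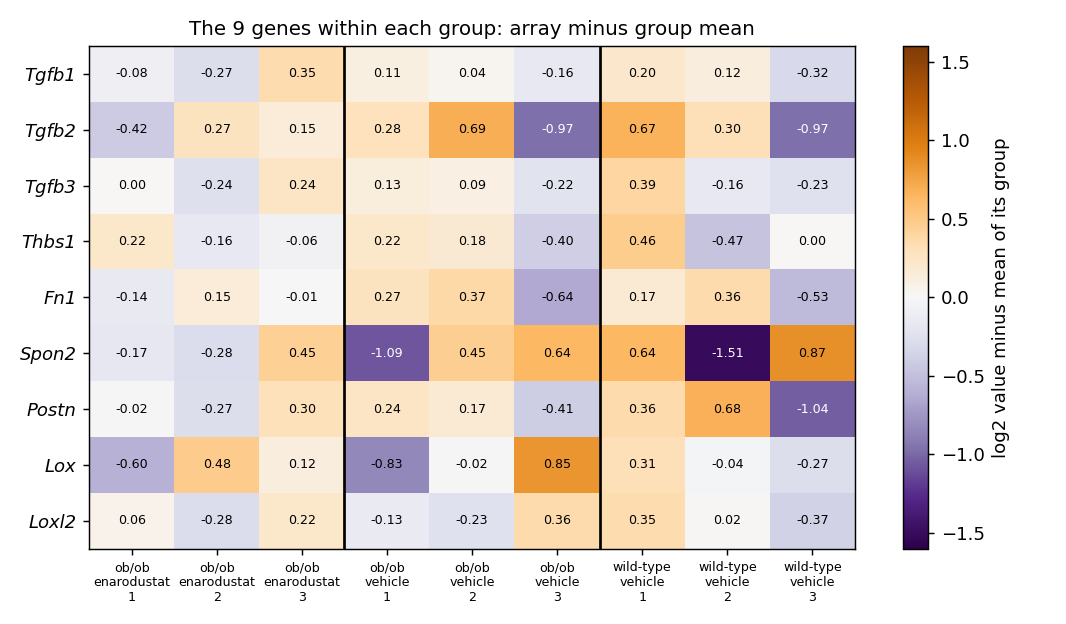
Log2 level of each of the 9 genes on each array minus the mean of its group, which removes all differences between groups. Wild-type replicate 3 is below its group mean for Tgfb1, Tgfb2, Tgfb3, Fn1, Postn, Lox and Loxl2, and the widest deviations are those of Spon2, from -1.51 to 0.87.

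The genes most alike to each called gene over the 9 arrays were found by the root mean square (RMS) difference of log2 values, each gene centred on its own mean, among 15167 named genes. For Tgfb3 they were Tubb6, at 0.0937, and Rhod, at 0.0973. Those for Loxl2 were Ang and Abcb4, at 0.163 and 0.164. Fn1 was most alike to Ltbp2, at 0.190, and Prelp, at 0.238, both of which encode matrix proteins. Thbs1 was alike to P2rx1, at 0.269, and Spon2 to Mmp10 and Ccl2, at 0.770 and 0.807. The spread of the called genes around their own means, on the same RMS scale, was 0.535 for Tgfb3, 0.796 for Thbs1, 1.25 for Fn1, 2.07 for Spon2 and 0.752 for Loxl2. P2rx1 had log2 changes of -0.49 for ob/ob enarodustat over ob/ob vehicle and 1.61 for ob/ob vehicle over wild-type vehicle. All these values share the same 9 arrays, and the likeness is a description.

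The wider pathway was followed in 76 genes of 7 lists, of which 73 were tested. In ob/ob vehicle over wild-type vehicle, 21 rose and 3 fell, where 4.89% of all features were called higher and 2.66% lower. The median log2 change of the 73 was 0.49, against 0.02 over all features. In ob/ob enarodustat over wild-type vehicle, 22 rose and 7 fell, where 6.1% of all features were called higher and 4.09% lower, with a median of 0.45, against -0.01. The same shares of all features apply to the counts of each list below. Between ob/ob enarodustat and ob/ob vehicle limma called none of the 73, with a median of -0.06. When 1 array was left out, 15 of the 24 calls for ob/ob vehicle and 14 of the 29 for ob/ob enarodustat held in all 9 such fits. The calls given below with a log2 change held in all 9 unless stated. With proximal tubule markers as a covariate, 10 of the 24 calls for ob/ob vehicle were made, namely Itgb8, Ltbp2, Col3a1, Thbs3, Comp, Ecm1, Tgm2, Fbln5, Loxl4 and Cd47. Of the ob/ob vehicle calls given below, those of Lrrc32, Fbn1, Eng, Smad1, Dcn, Smurf1, Acta2, Col1a2 and Itgb3 were lost in that fit. Their limma adjusted p values ran from 0.05004 for Acta2 to 0.228 for Smad1. In ob/ob enarodustat over wild-type vehicle, 28 genes were called in that fit, and of those named below Tgif1 lost its call (limma adjusted p = 0.0533). Loxl4 is in the counts of both comparisons with wild type. Its probe was well above background on no wild-type array and on 2 ob/ob enarodustat arrays. It passed the filter through ob/ob vehicle alone, so its calls are not taken as a check of a change.

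**Figure D5:**
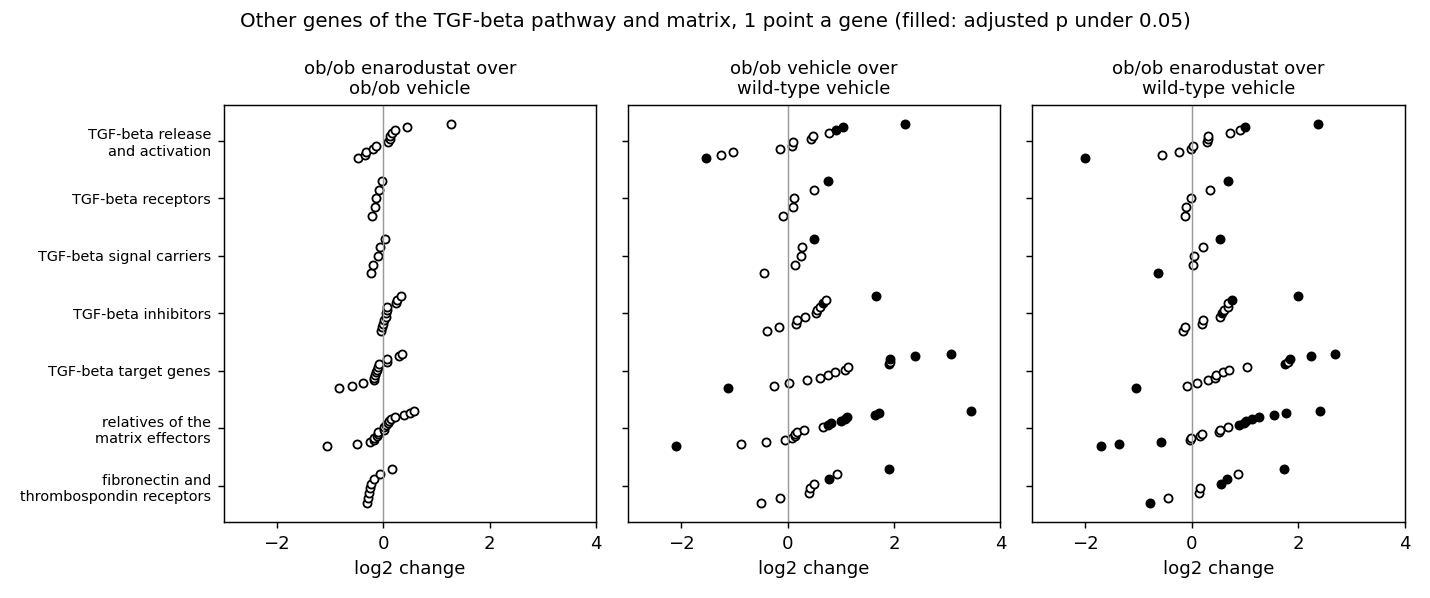
Log2 change of the 73 tested genes of the 7 pathway lists in the 3 comparisons, 1 point a gene, filled where the limma adjusted p is under 0.05. Filled points number 24 for ob/ob vehicle over wild-type vehicle and 29 for ob/ob enarodustat over wild-type vehicle, most of them right of 0, and 0 between the ob/ob groups. Of all features, 7.55% and 10.2% were called in the comparisons of ob/ob vehicle and ob/ob enarodustat with wild type. Both sets of filled points include Loxl4, whose probe was well above background on no wild-type array.

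Of 12 genes for the release and activation of TGF-beta, 3 rose and 1 fell in ob/ob vehicle over wild-type vehicle, and 2 rose and 1 fell in ob/ob enarodustat. Itgb8, the integrin subunit that binds and activates latent TGF-beta, fell by 1.53 ± 0.15 on the log2 scale in ob/ob vehicle (limma adjusted p = 0.00157). It fell by 2.01 ± 0.15 in ob/ob enarodustat (limma adjusted p = 0.000692), and all 4 of its probes were called in both. Between the ob/ob groups Itgb8 did not overlap and had a log2 change of -0.48 ± 0.15, which did not pass (limma adjusted p = 0.687), and its 4 probes ranged from -0.48 to 0.20. Ltbp2, a latent TGF-beta binding protein of the matrix, rose by 2.21 ± 0.32 and 2.37 ± 0.32 in the ob/ob vehicle and ob/ob enarodustat comparisons with wild type.

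Lrrc32, which holds latent TGF-beta at the cell surface, rose by 0.92 ± 0.17 in ob/ob vehicle and by 1.01 ± 0.17 in ob/ob enarodustat, over wild type. The ob/ob vehicle call of Lrrc32 did not hold when wild-type replicate 2 or 3, or replicate 1 or 3 of ob/ob vehicle, was left out, with a limma adjusted p of at most 0.0650. Fbn1, the microfibril protein fibrillin 1, rose by 1.05 ± 0.25 in ob/ob vehicle. The Fbn1 call did not hold when wild-type replicate 2 or 3, any ob/ob vehicle array or enarodustat replicate 2 was left out, with a limma adjusted p of at most 0.111.

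Among 5 receptors, Eng alone was called. It encodes endoglin, a co-receptor of endothelium, and rose by 0.76 ± 0.15 in ob/ob vehicle and by 0.68 ± 0.15 in ob/ob enarodustat over wild type. Neither call of Eng held when wild-type replicate 1 or 2 was left out. The first was also lost without ob/ob vehicle replicate 1 or 2, and the second without enarodustat replicate 1 or 3, with limma adjusted p values of at most 0.0797 and 0.0930. Among 5 signal carriers, Smad1 rose by 0.50 ± 0.12 and by 0.53 ± 0.12, and Smad2 fell by 0.63 ± 0.14 in ob/ob enarodustat alone. Smad1 stayed called in ob/ob vehicle without wild-type replicate 1 only, and in ob/ob enarodustat without wild-type replicate 1 or 3 only, with a limma adjusted p of up to 0.142 otherwise. Its second probe gave 0.01 and -0.28, and with the mean of the probes neither Smad1 call held (limma adjusted p = 0.321 and 0.622). The Smad2 call did not hold when replicate 1 or 2 of wild type or of enarodustat was left out (limma adjusted p of at most 0.0668). Whether the Smad2 changes of the ob/ob groups differed was tested in the comparison between them, at -0.20 ± 0.14 (limma adjusted p = 0.777).

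Of 11 inhibitors, 2 rose in ob/ob vehicle and 3 in ob/ob enarodustat over wild type, and none fell. Dcn, the proteoglycan decorin that can bind TGF-beta, rose by 1.66 ± 0.38 in ob/ob vehicle and by 2.00 ± 0.38 in ob/ob enarodustat. The Dcn call in ob/ob vehicle held only when wild-type replicate 2, or replicate 3 of ob/ob vehicle, was left out (limma adjusted p of up to 0.115 otherwise), and that in ob/ob enarodustat was lost without enarodustat replicate 3 (limma adjusted p = 0.0512). Smurf1, a ubiquitin ligase that acts on SMADs and receptors, rose by 0.67 ± 0.16 and by 0.75 ± 0.16. The Smurf1 call in ob/ob vehicle held only without enarodustat replicate 2 (limma adjusted p of up to 0.126 otherwise). That in ob/ob enarodustat did not hold when replicate 2 or 3 of wild type, or 1 or 3 of enarodustat, was left out (at most 0.0768). Tgif1, a repressor of SMAD transcription, rose by 0.56 ± 0.14 in ob/ob enarodustat, a call that held only without ob/ob vehicle replicate 2 or 3 (limma adjusted p of up to 0.126 otherwise).

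Of 14 target genes of TGF-beta, 4 rose and 1 fell in each comparison with wild type. Col3a1, a fibrillar collagen gene, rose by 1.93 ± 0.28 in ob/ob vehicle and by 1.85 ± 0.28 in ob/ob enarodustat, and Acta2, the smooth muscle actin gene, by 1.91 ± 0.31 and by 1.76 ± 0.31. One of the 3 Acta2 probes gave 0.19 and 0.00. Col1a2, which encodes a chain of type I collagen, went the other way and fell by 1.13 ± 0.18 and by 1.06 ± 0.18. Only 1 of the 3 Col1a2 probes was called, and with the mean of its probes neither call held. That mean gave -1.18 for ob/ob vehicle (limma adjusted p = 0.0534) and -0.77 for ob/ob enarodustat (limma adjusted p = 0.151). Acta2 is also a smooth muscle marker, and it was the 1 of 5 tested smooth muscle markers called.

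Of 18 tested relatives of the matrix effectors, 8 rose and 1 fell in ob/ob vehicle, and 8 rose and 3 fell in ob/ob enarodustat, over wild type. Both counts of rises include Loxl4, which passed the filter through ob/ob vehicle alone. Thbs3, a thrombospondin, rose by 1.65 ± 0.17 in ob/ob vehicle and by 1.54 ± 0.17 in ob/ob enarodustat. Comp, another thrombospondin, fell by 2.09 ± 0.24 and by 1.70 ± 0.24, so the members of that family changed in opposite directions. Tgm2, a transglutaminase that crosslinks fibronectin, rose by 1.00 ± 0.15 and by 1.14 ± 0.15. Ecm1, an extracellular matrix protein, rose by 1.09 ± 0.16 in ob/ob vehicle, and Fbln5, an elastic fibre protein, by 1.78 ± 0.28 in ob/ob enarodustat. Neither rise was limited to 1 group: Ecm1 and Fbln5 were each called higher in both comparisons with wild type, also in all 20 alternatives.

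Of 8 receptors of fibronectin and thrombospondin, 2 rose in ob/ob vehicle over wild-type vehicle, and 3 rose and 1 fell in ob/ob enarodustat. Cd47, a thrombospondin 1 receptor, rose by 0.77 ± 0.11 in ob/ob vehicle and by 0.54 ± 0.11 in ob/ob enarodustat. The Cd47 call in ob/ob enarodustat did not hold when wild-type replicate 2, or enarodustat replicate 1 or 3, was left out (limma adjusted p of at most 0.0729). Itgb3, an integrin subunit that binds fibronectin and is abundant on platelets, rose by 1.90 ± 0.40 and by 1.73 ± 0.40. Neither call of Itgb3 held when 1 wild-type array, whichever it was, was left out. The first was also lost without ob/ob vehicle replicate 1 and the second without enarodustat replicate 1 or 3, with limma adjusted p values of at most 0.0839 and 0.0911.

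In ob/ob enarodustat over wild type, Itga5, the fibronectin receptor subunit, rose by 0.66 ± 0.15 and Sdc4, the heparan sulphate proteoglycan syndecan 4, fell by 0.78 ± 0.15. The Itga5 call did not hold when 1 wild-type array, whichever it was, or enarodustat replicate 3 was left out (limma adjusted p of at most 0.0780). The Sdc4 call was lost without enarodustat replicate 2 (limma adjusted p = 0.0510). For ob/ob enarodustat over ob/ob vehicle, the genes with the smallest p in the lists not yet covered were Tgfbr3, Tgif1, Itga11, Eln and Itgb1. Their log2 changes were -0.21, 0.24, -0.83, 0.58 and -0.28, and their limma adjusted p values were 0.767, 0.765, 0.765, 0.715 and 0.708.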

How the data were processed

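RNA of 9 samples was measured on 1-colour Agilent arrays. Per the file headers, the authors took spot intensity from Agilent Feature Extraction (version 11.5.1.1) as a background-subtracted processed signal on a linear scale, in mm9 coordinates. The deposited value table holds log2 values, with column medians of -3.10 to -2.93. Set against the scanner files, it is log2 processed signal minus about the 75th percentile, with no centring of genes. None of this is stated, and scale, centring and direction were found from the values. The submitters' processing notes also name limma, with no role.

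Control and outlier spots were left out and spots of a probe averaged, which removed 32 probes. The filter kept 36671 probes, those well above background throughout at least 1 group. A gene was read at its probe with the highest mean. RefSeq genes of GRCm38.p6 served for names only. Accessions matched 32994 probes, symbols 10224 and synonyms 520. The deposited name was kept for 2574 others, while 10293 had no name. No reference genome was used, and the sources used here do not give the exon or UTR of each probe. Limma 3.58.1 in R 4.3.3 (with the package data.table, version 1.17.8) fitted 3 groups on 9 arrays with lmFit and eBayes, with Benjamini-Hochberg adjustment over 24150 features and calls at an adjusted p under 0.05. The fit was tested on simulated data. Figures used matplotlib 3.10.9 in Python 3.11.15.

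The 9 genes and the pathway and marker lists were chosen with earlier results of these data known. Per list, up to 4 called genes with the smallest p in each comparison are named, or the 1 with the smallest p where none was called. A gene of the target list and a gene alike to Thbs1 are not reported here. Other values, normalizations and array choices were tried as alternatives.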

Additional observations from a re-analysis of the deposited data

How the results depend on the processing

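No log2 change reversed a call in any alternative. Of 540 values of the 9 genes under 20 alternatives, 503 kept their direction and their side of the threshold, 19 lost a call, 3 gained one, and 15 uncalled values changed sign. The 3 gained calls are those of Thbs1 and Postn without 1 wild-type array, and the lost calls are those of Tgfb3 and Spon2. With every probe tested and no filter, the calls for ob/ob enarodustat over wild-type vehicle were 2 of the 9 genes, 16 pathway genes and 1227 features, and those for ob/ob vehicle over wild-type vehicle 1005 features, against 4, 29, 2460 and 1823. With proximal tubule markers as a covariate, ob/ob vehicle over wild-type vehicle had 10 pathway genes and 685 features. With slide as a block, which leaves out the lone enarodustat replicate 3, ob/ob enarodustat over wild-type vehicle had 2 of the 9 genes, 17 pathway genes and 1365 features. The fit without that array gave the same counts, so these 2 of the 20 alternatives are not separate. Leaving out 1 array at a time gave 4 to 6 of the 9 genes, 15 to 22 pathway genes and 916 to 1774 features for ob/ob vehicle over wild-type vehicle. It gave 2 to 5, 17 to 31 and 1215 to 2163 for ob/ob enarodustat over wild-type vehicle. Between the ob/ob groups all counts were 0 in every alternative. Quantile normalization, normexp, the array median, the mean over probes, each probe as a feature, a filter on all arrays, only the groups compared and the deposited table kept each count within 1.5 times. The array median moved the median change of all features by the most, to 0.08 for ob/ob vehicle over wild-type vehicle.

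With the replicate number as a block, the counts were 5 of the 9 genes, 21 pathway genes and 1408 features for ob/ob vehicle over wild-type vehicle, 3, 24 and 1954 for ob/ob enarodustat over wild-type vehicle, and 0 between the ob/ob groups. Tgfb3 was the 1 of the 9 genes that lost a call under the block. Deviations of same-numbered samples from their group means correlated at -0.284 to 0.261, and those of differently numbered samples at -0.359 to 0.451. Deviations within a group of 3 arrays depend on each other, so these values cannot decide whether the numbers pair the samples.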
